A study of Homo sapiens with 6 samples.

Results

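The small nucleolar RNA (snoRNA) host genes GAS5, ZFAS1, SNHG1, SNHG5, SNHG6, SNHG7, SNHG8, SNHG12, SNHG15 and SNHG16 were followed in HepG2, a human liver cancer cell line, after knockdown of a circular RNA. They were taken by gene symbol from a table of 60612 genes, in which each of the 10 symbols had 1 row, and 9 of the 10 had enough counts to be tested. Both groups carried the line's own genotype, labelled WT, and had been infected with lentivirus. In 3 libraries (sh-circPRKAA1) the virus carried a short hairpin RNA against circPRKAA1, a circle named for the gene PRKAA1, and in the other 3 (sh-ctrl) it carried a control hairpin. RNA-seq libraries were made from total RNA with a SMARTER mRNA-Seq kit. The labels do not say whether the 3 libraries of each group are separate cultures, how long after infection the cells were taken, or how many hairpins or clones were used. The shRNA label numbers the knockdown samples differently from their titles (circPRKAA1, circPRKAA2 and circPRKAA3), and the titles were used. The circle has no row in the table, so the knockdown itself could not be checked here.

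A snoRNA host gene is transcribed as a long RNA whose introns hold snoRNAs. When the introns are removed, the snoRNAs are trimmed out of them and assembled with proteins. Box C/D snoRNAs guide ribose methylation of ribosomal RNA and box H/ACA snoRNAs guide pseudouridylation. The spliced exons that remain form the long noncoding RNA. Several of these RNAs are known to be short-lived because ribosomes engage them and nonsense-mediated decay removes them. The exonic lengths deposited for SNHG1 (3970 bases), SNHG8 (6608 bases) and SNHG15 (3939 bases) equal the whole span of each gene, introns included. Their rows may therefore hold unspliced RNA too. Many host genes start with a terminal oligopyrimidine (TOP) tract, a C followed by a run of C and T, which they share with ribosomal protein genes and which ties translation of the RNA to growth signalling. Several of these RNAs, GAS5, ZFAS1 and SNHG1 among them, have been studied in liver cancer cells.

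The starts of the genes are shown because the TOP tract lies there. Each sequence runs 5′ to 3′ on the gene's own strand, from 20 bases before to 40 bases from the start given by RefSeq (GRCh38.p14). Capitals mark the longest run of a C followed by at least 4 bases of C or T, counted from a C within 10 bases of that start. At SNHG7 the C and T letters continue upstream of the marked part, which lies wholly before the start. RefSeq promoter entries matched 8 of the 10 genes and SNHG6 and SNHG15 had no match.
SNHG7 (chr9:136728145-136728204, minus strand): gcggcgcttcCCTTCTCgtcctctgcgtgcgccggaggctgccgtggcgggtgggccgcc
SNHG16 (chr17:76557744-76557803, plus strand): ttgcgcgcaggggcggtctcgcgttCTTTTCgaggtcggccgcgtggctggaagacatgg
SNHG8 (chr4:118278742-118278801, plus strand): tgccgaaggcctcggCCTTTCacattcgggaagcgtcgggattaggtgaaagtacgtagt
SNHG12 (chr1:28581834-28581893, minus strand): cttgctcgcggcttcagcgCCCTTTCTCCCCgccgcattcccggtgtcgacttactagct
SNHG5 (chr6:85678694-85678753, minus strand): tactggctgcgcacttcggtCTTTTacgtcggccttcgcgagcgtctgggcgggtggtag
ZFAS1 (chr20:49278622-49278681, plus strand): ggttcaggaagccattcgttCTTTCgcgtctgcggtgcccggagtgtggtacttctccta
GAS5 (chr1:173869006-173869065, minus strand): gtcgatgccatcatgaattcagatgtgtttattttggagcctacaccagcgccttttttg
SNHG1 (chr11:62855846-62855905, minus strand): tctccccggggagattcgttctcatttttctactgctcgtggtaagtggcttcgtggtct
Such a run was present in 6 of the 8 sequences and absent from those of GAS5 and SNHG1. It was found at 33.5% of all 35116 RefSeq promoters of the same length and at 64 of 77 ribosomal protein promoters (83.1%). The RefSeq start of GAS5 lies 163 bases upstream of the start in the deposited table, and the starts of SNHG7 and SNHG16 coincide in both. The RefSeq starts of the other 5 genes lie downstream of the deposited ones, by 53 bases for SNHG8 and by up to 1259 bases for SNHG12. A missing run says only that these letters are not near this start, and whether a marked run serves as a TOP tract was not tested. The E-box CACGTG, a palindrome that reads alike on both strands and is bound by MYC among other factors, occurred in the RefSeq promoter window (250 bases before to 50 bases after the start) of SNHG7 alone, and in 7.26% of all promoters.

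RefSeq places 37 snoRNAs inside the 10 genes, 28 of them box C/D and 8 box H/ACA by name. GAS5 holds 11 of them and SNHG1 holds 9. SNHG12 has 4, ZFAS1 and SNHG16 have 3 each, SNHG5 and SNHG7 have 2 each, and SNHG6, SNHG8 and SNHG15 have 1 each. The sequences of 4 are given as examples of the products, from GENCODE 29 (GRCh38), 5′ to 3′. Of these, 3 are box C/D snoRNAs that had counts, and SNORA24 represents the H/ACA class. Capitals mark TGATGA, the C box, and the last CTGA, the D box, in box C/D snoRNAs, and the last ACA in the H/ACA snoRNA, searched on the snoRNA's own strand.
SNORD12B in ZFAS1 (chr20:49280319-49280409, plus strand): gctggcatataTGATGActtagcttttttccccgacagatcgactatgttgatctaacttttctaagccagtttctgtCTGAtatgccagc
SNORD1B in SNHG16 (chr17:76561109-76561192, plus strand): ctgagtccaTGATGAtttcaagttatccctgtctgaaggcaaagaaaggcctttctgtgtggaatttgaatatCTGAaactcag
SNORD99 in SNHG12 (chr1:28578749-28578822, minus strand): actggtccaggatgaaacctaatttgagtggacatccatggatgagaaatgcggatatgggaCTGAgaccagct
SNORA24 in SNHG8 (chr4:118279190-118279320, plus strand): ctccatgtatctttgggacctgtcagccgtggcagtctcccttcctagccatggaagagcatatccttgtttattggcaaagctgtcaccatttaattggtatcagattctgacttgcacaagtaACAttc
TGATGA was present in 77.3% of all 278 SNORD sequences of that annotation, though not in SNORD99, and CTGA in 98.2%. An ACA stood within the last 10 bases of 91.2% of 147 SNORA sequences.

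Total counts were 16348435 to 17549690 in sh-circPRKAA1 libraries and 16284262 to 20282496 in sh-ctrl libraries. A count was seen for 23788 to 24190 genes in sh-circPRKAA1 libraries and for 21073 to 22254 in sh-ctrl libraries. All 7 hepatocyte markers were present, and their summed level was 22852 to 23729 CPM in sh-circPRKAA1 and 22301 to 24046 CPM in sh-ctrl libraries. Its members moved in both directions: HNF4A (log2 fold change -1.49), APOA1 (-1.10), TTR (-0.48) and AFP (-0.33) were lower and APOB (0.66) was higher by the edgeR test used below, and their part in the host gene values was not tested. The 5 fibroblast markers summed to 0.216 to 0.396 CPM in sh-circPRKAA1 and 0.134 to 0.224 CPM in sh-ctrl libraries. The 3 endothelial markers summed to 4.75 to 5.48 CPM in sh-circPRKAA1 and 4.81 to 7.44 CPM in sh-ctrl libraries. Of the 4 leukocyte markers, LYZ made up nearly all of a sum of 602 to 628 CPM in sh-circPRKAA1 and 767 to 845 CPM in sh-ctrl libraries, while PTPRC, the pan-leukocyte marker, stayed at or below 0.380 CPM in every library. In whole-cell RNA, fewer cells with an RNA and less of it per cell cannot be told apart.

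Host genes were mostly lower after the knockdown, with SNHG7, SNHG16 and SNHG8 lowest. Of the 9 tested genes, 6 were lower in sh-circPRKAA1, 1 was higher and 2 did not pass edgeR's quasi-likelihood test (Benjamini-Hochberg adjusted p under 0.05 over all 14990 tested genes). In the same test 32.4% of all genes were lower and 36.1% were higher, so 68.4% of all genes were called. The groups did not overlap for the same 6 lower genes and for the 1 higher gene, against 34.1% of all genes lower without overlap and 38.0% higher (72.1% in either direction). The median log2 fold change of the 9 was -0.47, against 0.05 for all tested genes. With TPM as the measure 3 of the 9 were lower and 3 higher, with a median of -0.18. Among the 1699 tested long noncoding genes, 522 were higher and 385 lower, with a median of 0.10. With all 10 genes summed, the host genes took 0.0652%, 0.0631% and 0.0602% of counts in sh-circPRKAA1 libraries, against 0.0747%, 0.0741% and 0.0701% in sh-ctrl libraries.

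**Figure D1:**
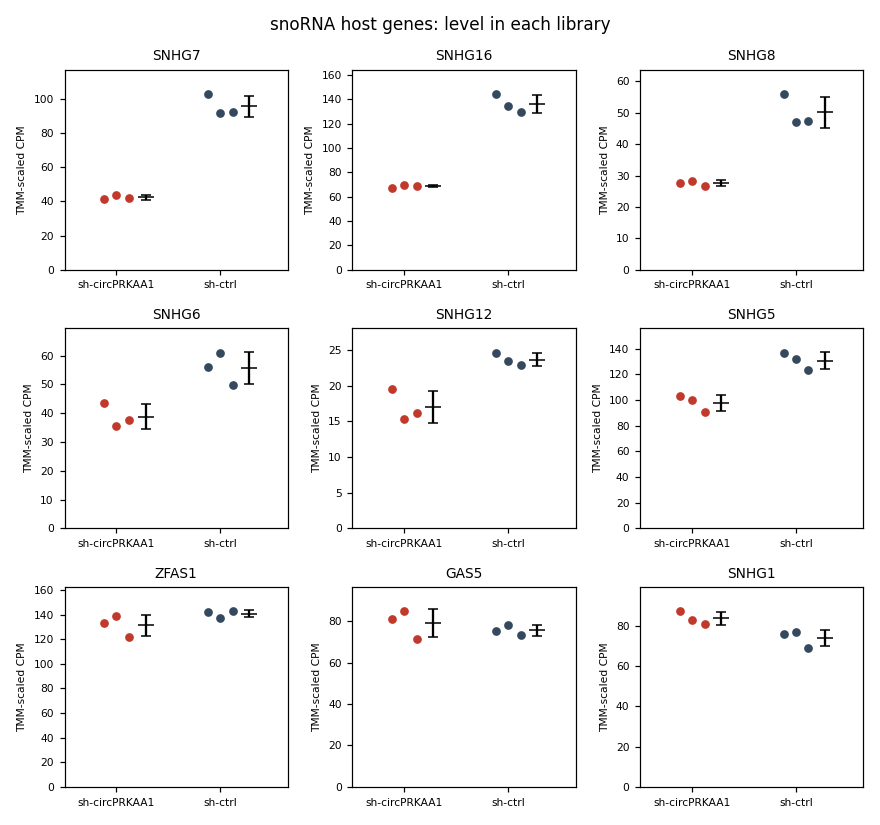
Level of each tested host gene in each library, in CPM scaled by TMM (vertical axes, from 0), sh-circPRKAA1 left and sh-ctrl right. Dots are libraries 1 to 3 and bars are the mean and SD of 3; SNHG7, SNHG16 and SNHG8 lie far below sh-ctrl, while the groups of ZFAS1 and GAS5 overlap.

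SNHG7, SNHG16 and SNHG8 were lowest relative to sh-ctrl. SNHG7, the host of SNORA17A and SNORA17B (ENSG00000233016, chr9:136721366-136728184, minus strand), had 758, 811 and 741 counts in sh-circPRKAA1 libraries, against 1533, 1760 and 1648 in sh-ctrl libraries. After TMM scaling its level was 41.2, 43.9 and 41.9 CPM in sh-circPRKAA1, against 102.5, 91.6 and 92.2 CPM in sh-ctrl. All sh-circPRKAA1 libraries lay far below the lowest sh-ctrl library, and the means were 42.3 ± 1.42 and 95.4 ± 6.12 CPM (SD, n = 3 each). The log2 fold change was -1.17 (SE 0.080, 95% interval -1.34 to -1.0, edgeR adjusted p = 3.68e-09), a level 44.4% of sh-ctrl. Only 5.23% of all tested genes had a fold change this low or lower.

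SNHG16 carries SNORD1A, SNORD1B and SNORD1C (ENSG00000163597, chr17:76557764-76565348, plus strand). Its level was 67.5, 69.8 and 69.1 CPM in sh-circPRKAA1, against 144.0, 134.7 and 129.3 CPM in sh-ctrl. The 3 sh-circPRKAA1 values lay close together and far under every sh-ctrl value. By edgeR the log2 fold change was -0.98 (SE 0.074, 95% interval -1.14 to -0.83, edgeR adjusted p = 1.11e-08), a level 50.6% of sh-ctrl.

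SNHG8, the host of SNORA24 (ENSG00000269893, chr4:118278709-118285316, plus strand), had 27.6, 28.4 and 26.7 CPM in sh-circPRKAA1, against 55.9, 47.1 and 47.3 CPM in sh-ctrl. The first sh-ctrl library was the highest and the groups were apart without it too. This gave a log2 fold change of -0.86 (SE 0.093, 95% interval -1.06 to -0.66, edgeR adjusted p = 6.13e-07), a level 55.1% of sh-ctrl. SNHG7, SNHG16 and SNHG8 passed the test, in this direction, under each of the 20 alternative processings that were run.

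SNHG6, SNHG12 and SNHG5 fell with smaller fold changes. SNHG6, the host of SNORD87 (ENSG00000245910, chr8:66921684-66926398, minus strand), had 43.5, 35.4 and 37.4 CPM in sh-circPRKAA1, against 55.9, 61.0 and 49.8 CPM in sh-ctrl. Its log2 fold change was -0.52 (SE 0.099, 95% interval -0.73 to -0.31, edgeR adjusted p = 2.26e-04). Relative to their means, libraries of both groups were spread more widely than for SNHG16, and the groups did not overlap.

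SNHG12, which holds 1 box C/D and 3 box H/ACA snoRNAs (ENSG00000197989, chr1:28578538-28583132, minus strand), had 19.5, 15.3 and 16.2 CPM in sh-circPRKAA1, against 24.6, 23.5 and 22.8 CPM in sh-ctrl. The log2 fold change was -0.47 (SE 0.111, 95% interval -0.71 to -0.24, edgeR adjusted p = 0.00131), and the first sh-circPRKAA1 library was nearest to sh-ctrl.

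SNHG5, the host of SNORD50A and SNORD50B (ENSG00000203875, chr6:85650491-85678932, minus strand), had 102.8, 99.9 and 90.5 CPM in sh-circPRKAA1, against 136.8, 131.8 and 123.2 CPM in sh-ctrl. Its log2 fold change was -0.42 (SE 0.077, 95% interval -0.58 to -0.25, edgeR adjusted p = 1.61e-04), a level 74.8% of sh-ctrl. These 3 falls depended on the scaling. With TPM as the measure, which moves the median of all genes by 0.29 on the log2 scale, the log2 fold changes were -0.23 for SNHG6, -0.18 for SNHG12 and -0.13 for SNHG5 and none passed (adjusted p = 0.0916, 0.185 and 0.121). SNHG12 did not pass with limma on log2(FPKM + 1) or log2(FPKM + 0.1) either (-0.23 and -0.28, limma adjusted p = 0.0526 and 0.0501).

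ZFAS1, GAS5 and SNHG1 were not called lower. ZFAS1 (ENSG00000177410, chr20:49278178-49299600, plus strand), which carries the SNORD12 family, had 132.8, 138.7 and 122.1 CPM in sh-circPRKAA1, against 142.2, 137.6 and 142.7 CPM in sh-ctrl. The groups overlapped and the log2 fold change was -0.10 (SE 0.073, 95% interval -0.26 to 0.05, edgeR adjusted p = 0.226). The sign of this difference turned under library totals, TPM, quantile scaling and limma on FPKM. With TPM the gene was called higher (0.19, edgeR adjusted p = 0.0149).

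GAS5, growth arrest specific 5, is known to accumulate when growth or translation slows. This gene (ENSG00000234741, chr1:173858559-173868882, minus strand) had 81.3, 84.9 and 71.4 CPM in sh-circPRKAA1, against 75.6, 78.3 and 73.2 CPM in sh-ctrl. The third sh-circPRKAA1 library was below every sh-ctrl library and the other two were above them. The log2 fold change was 0.07 (SE 0.082, 95% interval -0.11 to 0.24, edgeR adjusted p = 0.489). It passed as higher under 5 alternatives, up to 0.36 with TPM, and as lower under the offsets for GC content and exonic length, at -0.26 (adjusted p = 0.00179).

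SNHG1 (ENSG00000255717, chr11:62851984-62855953, minus strand), the host of SNORD25 to SNORD31 and of SNORD22, was the 1 gene called higher. Its level was 87.4, 82.9 and 81.2 CPM in sh-circPRKAA1, against 76.0, 76.8 and 69.3 CPM in sh-ctrl. The groups did not overlap, though the lowest sh-circPRKAA1 library was close to the highest sh-ctrl library. The log2 fold change was 0.18 (SE 0.076, 95% interval 0.02 to 0.34, edgeR adjusted p = 0.0473), a level 113% of sh-ctrl. The call held in 9 of 20 alternatives. It was lost when any one of the 3 sh-circPRKAA1 libraries was left out (0.15, 0.18 and 0.20 without libraries 1, 2 and 3, adjusted p = 0.170, 0.0935 and 0.0719). It was lost as well without sh-ctrl replicate 2 (0.16, adjusted p = 0.0962) or replicate 3 (0.10, adjusted p = 0.398), and under offsets for GC content and exonic length the value was -0.07 (adjusted p = 0.308).

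SNHG15, the host of SNORA9 (ENSG00000232956, chr7:44983023-44986961, minus strand), had 1, 1 and 3 counts in sh-circPRKAA1 libraries and 1 in each sh-ctrl library. Both groups lay at or under 3 counts per library, so no fold change is given.

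**Figure D2:**
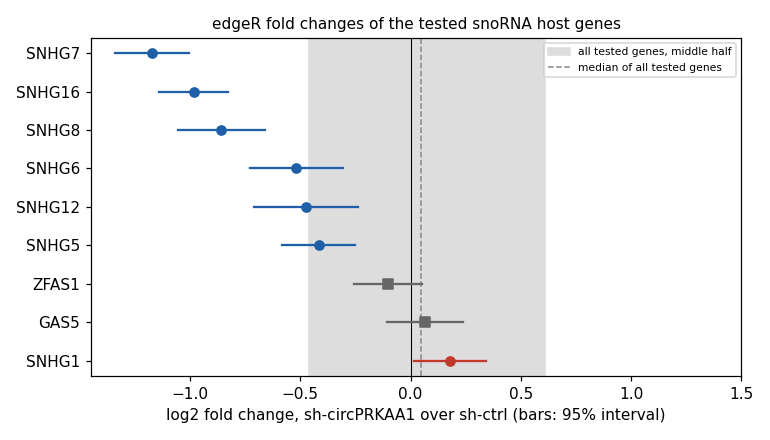
Log2 fold change (sh-circPRKAA1 over sh-ctrl, horizontal axis) of each tested host gene by edgeR, with 95% intervals as lines; round points passed the test and squares did not. The grey band spans the quartiles of all tested genes (-0.46 to 0.61) and the dashed line is their median; SNHG7, SNHG16 and SNHG8 have their whole interval left of the band.

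Host genes were also set against each other within each library, where the scaling of libraries cancels out. Effects of GC content or length that differ between libraries do not cancel. SNHG1 and SNHG7 were farthest apart in these ratios. With offsets for GC content and exonic length their log2 fold changes were -0.07 and -0.96. The log2 ratio of SNHG1 to SNHG7 counts was 1.09, 0.92 and 0.95 in sh-circPRKAA1 libraries, against -0.43, -0.25 and -0.41 in sh-ctrl libraries. SNHG7 therefore had the larger count of this pair in every sh-ctrl library and SNHG1 had it in every sh-circPRKAA1 library. The ratio differed by 1.35 on the log2 scale (exact permutation test, two-sided, p = 0.10, the smallest that 3 against 3 can give; 0.12 after adjustment over 36 pairs). The ratio of GAS5 to SNHG16 likewise changed sign, at 0.27, 0.28 and 0.05 in sh-circPRKAA1 and -0.93, -0.78 and -0.82 in sh-ctrl. Of the 36 pairs, 30 had ratios that did not overlap between groups, against 69.5% of all pairs among the 14882 tested genes with a count in every library. The 6 pairs that overlapped were GAS5 with SNHG1, SNHG8 with SNHG16, SNHG6 with SNHG8, and the 3 pairs among SNHG5, SNHG6 and SNHG12. For SNHG6 to SNHG12 the log2 ratio was 1.16, 1.21 and 1.21 in sh-circPRKAA1, against 1.18, 1.38 and 1.13 in sh-ctrl, a difference of -0.04.

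**Figure D3:**
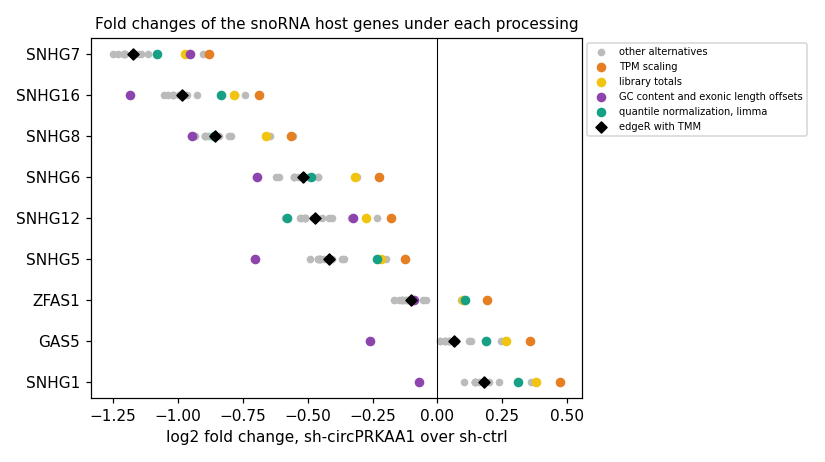
Log2 fold change (sh-circPRKAA1 over sh-ctrl) of each tested host gene under edgeR with TMM (black diamonds) and under 20 alternatives (dots; the scalings that move values most are coloured). Values of SNHG7, SNHG16 and SNHG8 stay below -0.55 throughout, while those of ZFAS1, GAS5 and SNHG1 fall on both sides of 0.

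Levels were compared between genes per exonic length, as FPKM. SNHG6 was highest in both groups, at 33.4 ± 4.0 FPKM in sh-circPRKAA1 and 41.6 ± 4.51 FPKM in sh-ctrl (SD, n = 3 each). In sh-circPRKAA1 it was followed by SNHG1 (22.6 ± 0.997), GAS5 (17.5 ± 1.37), ZFAS1 (16.9 ± 0.895), SNHG16 (13.7 ± 0.170), SNHG7 (9.27 ± 0.179), SNHG5 (8.31 ± 0.526), SNHG8 (4.47 ± 0.0888) and SNHG12 (4.28 ± 0.595). GAS5 and ZFAS1, and SNHG8 and SNHG12, did not differ beyond their spread. In sh-ctrl the order was SNHG6, SNHG16 (23.7 ± 1.07), SNHG7 (18.2 ± 0.908), SNHG1 (17.4 ± 1.01), ZFAS1 (15.8 ± 0.201), GAS5 (14.6 ± 0.630), SNHG5 (9.67 ± 0.461), SNHG8 (7.07 ± 0.607) and SNHG12 (5.17 ± 0.153), where SNHG7 and SNHG1 did not differ beyond their spread. SNHG15 was last in both groups, at 0.0253 FPKM in sh-circPRKAA1 and 0.0138 FPKM in sh-ctrl. SNHG16 thus stood the fifth in sh-circPRKAA1 and the second in sh-ctrl. The order rests on exonic length. The deposited lengths of SNHG8, SNHG5 and ZFAS1 are 7.16, 4.49 and 3.71 times those of GENCODE 29, and with GENCODE lengths ZFAS1 came first, at 62.7 FPKM in sh-circPRKAA1 and 58.6 FPKM in sh-ctrl. These values keep the deposited counts, so reads outside the GENCODE exons would make them too high.

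Several host genes share their locus with a gene on the opposite strand, and at SNHG1, GAS5, ZFAS1 and SNHG7 such a partner passed the test. SLC3A2, a subunit of amino acid transporters, starts 149 bases from SNHG1 and runs the other way. It had 211 ± 15.9 CPM in sh-circPRKAA1 and 370 ± 30.8 CPM in sh-ctrl (SD, n = 3 each), a log2 fold change of -0.81 (edgeR adjusted p = 2.42e-07). The log2 ratio of SNHG1 to SLC3A2 counts was -1.27, -1.46 and -1.27 in sh-circPRKAA1, against -2.39, -2.14 and -2.43 in sh-ctrl. SNHG1 was higher relative to its partner in every sh-circPRKAA1 library than in any sh-ctrl library (difference 0.99, exact permutation test, two-sided, p = 0.10, and 0.10 after adjustment over 4 such pairs). In the other 3 pairs the host gene was lower relative to its partner, without overlap and with the same p. Ratios without overlap are common here, at 69.5% of all pairs of tested genes with a count in every library. The log2 ratio differed by -0.87 for GAS5 to ZBTB37, by -0.56 for ZFAS1 to ZNFX1 and by -0.35 for SNHG12 to TRNAU1AP.

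At the GAS5 locus ZBTB37, a zinc finger gene that starts 800 bases from GAS5, was higher, at 10.6 ± 1.42 CPM in sh-circPRKAA1 and 5.66 ± 1.6 CPM in sh-ctrl (SD, n = 3 each; log2 fold change 0.88, edgeR adjusted p = 4.15e-04). With offsets for GC content and exonic length the value for ZBTB37 was 0.14 and did not pass. GAS5-AS1, at 14, 18 and 21 counts in sh-circPRKAA1 and 10, 7 and 4 counts in sh-ctrl, was called higher (log2 fold change 1.25, adjusted p = 0.0162), and the call was lost without sh-circPRKAA1 replicate 3 or either of sh-ctrl replicates 2 and 3 (1.08, 1.12 and 0.91).

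ZNFX1, the zinc finger helicase gene that ZFAS1 was named after, was higher, at 47.1 ± 3.99 CPM in sh-circPRKAA1 and 34.3 ± 1.61 CPM in sh-ctrl (log2 fold change 0.46, edgeR adjusted p = 2.98e-04). TRNAU1AP, a selenocysteine tRNA binding protein gene beside SNHG12, had 24.0 ± 1.83 CPM in sh-circPRKAA1 and 26.2 ± 1.83 CPM in sh-ctrl (-0.12, adjusted p = 0.282). The opposite-strand gene DIPK1B at the SNHG7 locus, at 6, 17 and 12 counts in sh-circPRKAA1 and 24, 40 and 53 in sh-ctrl, was lower (-1.79, adjusted p = 3.59e-04). At the SNHG16 locus AC015802.4, which starts 81 bases away, did not pass (-0.16, adjusted p = 0.636). Other overlapping genes had few counts: 1 to 9 for MCMDC2 at SNHG6, 2 to 6 for AC015802.6 at SNHG16 and 0 to 3 for PRSS12 at SNHG8. The pseudogene PKMP3 inside SNHG5 and 3 small RNA rows inside ZFAS1 were at 0 in every library.

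Exons shared with an opposite gene make up 30.6% of SNHG16 (with AC015802.6), 29.3% of SNHG6 (with MCMDC2), 25.2% of SNHG7 (with DIPK1B) and 11.1% of ZFAS1 (with ZNFX1), in GENCODE 29. The strand setting of the counting is not given in the sources used here, so reads in shared exons cannot be assigned to a strand.

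**Figure D4:**
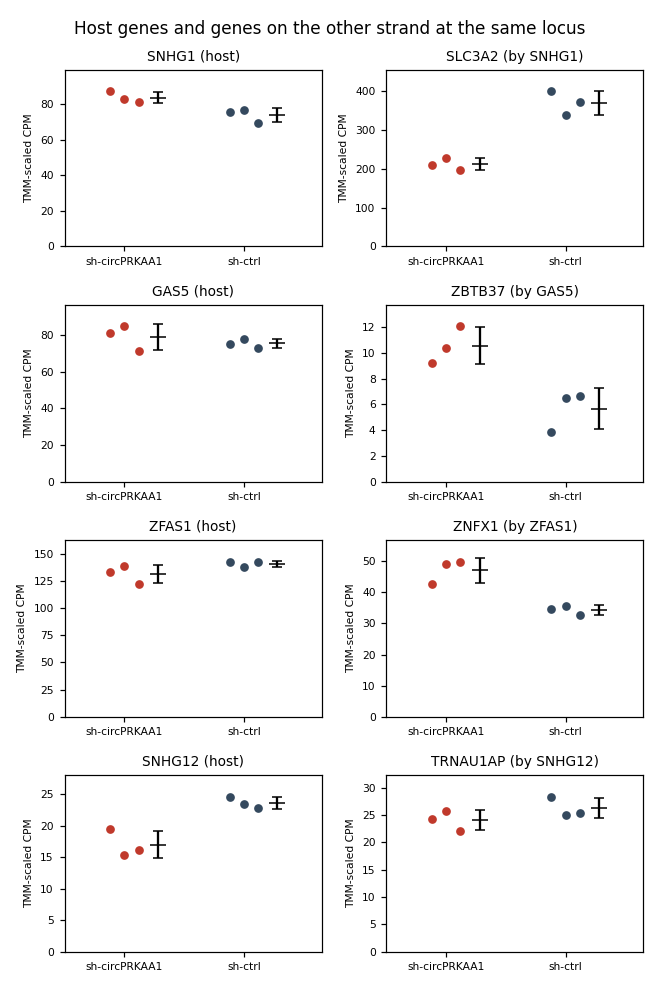
Level of SNHG1, GAS5, ZFAS1 and SNHG12 and of genes on the other strand at the same locus in each library, in TMM-scaled CPM (axes from 0), sh-circPRKAA1 left and sh-ctrl right; dots are libraries and bars the mean and SD of 3. SLC3A2 is lower in sh-circPRKAA1, and ZBTB37 and ZNFX1 are higher.

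Rows of the snoRNAs themselves held few counts. GENCODE 29 annotates no snoRNA inside GAS5, so the snoRNAs of that gene are not covered here. Of 26 rows for snoRNAs that it annotates inside the other 9 genes, 22 were at 0 in every library and none of the other 4 passed the filter for testing. SNORD12B inside ZFAS1 had the most, with 16, 13 and 5 counts in sh-circPRKAA1 and 4, 3 and 6 counts in sh-ctrl, where the groups overlapped. SNORD99 inside SNHG12 had 3, 2 and 1 counts in sh-circPRKAA1 and 2, 1 and 3 in sh-ctrl. SNORD1B inside SNHG16 had 1, 0 and 0 counts in sh-circPRKAA1 and 1, 4 and 0 in sh-ctrl, and SNORD12C inside ZFAS1 had 0, 0 and 1 in sh-circPRKAA1 and 2, 0 and 1 in sh-ctrl. All 942 snoRNA rows of the table took 0.00237% to 0.00283% of counts in sh-circPRKAA1 libraries and 0.00154% to 0.00209% in sh-ctrl libraries. The snoRNA rows held too few counts to compare the groups, and why they are low was not tested. The deposited lengths of SNHG1, SNHG8 and SNHG15 take in their introns and so the snoRNAs in them. How reads there were assigned is not given in the sources used here, so these host rows may not hold host RNA alone.

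Among other long noncoding host genes, taken from a list of 23 names of which 18 were tested, 12 were lower, 0 were higher and 6 did not pass (median log2 fold change -0.68). With TPM as the measure 8 of the 18 were lower (median -0.39). DANCR, the host of a box H/ACA snoRNA, had 53.0 ± 5.22 CPM in sh-circPRKAA1 and 211 ± 17.2 CPM in sh-ctrl (SD, n = 3 each; log2 fold change -1.99, edgeR adjusted p = 5.36e-11). SNHG3 had 95.9 ± 6.53 CPM in sh-circPRKAA1 and 217 ± 7.73 CPM in sh-ctrl (-1.18, adjusted p = 1.79e-09). SNHG4 had 18.6 ± 0.261 CPM in sh-circPRKAA1 and 48.2 ± 3.53 CPM in sh-ctrl (-1.38), and SNHG26 had 3.24 ± 0.434 CPM in sh-circPRKAA1 and 13.1 ± 0.933 CPM in sh-ctrl (-2.01). Taken by annotation instead, 15 tested long noncoding genes besides the host genes above have a snoRNA inside, and 9 of them were lower, 1 was higher and 5 did not pass (median -0.69). With TPM 7 of the 15 were lower and 1 was higher (median -0.40).

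Ribosomal protein genes that host snoRNAs were lower at 23 of 23 tested (median log2 fold change -0.86). With TPM 22 of the 23 were lower (median -0.56), and with quantile scaling 20 were lower and 1 was higher (median -0.42). RPSA had 457 ± 32.4 CPM in sh-circPRKAA1 and 1406 ± 138 CPM in sh-ctrl (-1.62), and RPS2 had 1523 ± 92.2 CPM in sh-circPRKAA1 and 4665 ± 443 CPM in sh-ctrl (-1.61). RPL12 and RPS12 had log2 fold changes of -1.07 and -1.04. By annotation, all 28 ribosomal protein genes with a snoRNA inside were lower (median -0.83), and so were 50 of the 51 without one (median -0.70). With quantile scaling 24 of the 28 were lower and 1 higher, and 40 of the 51 were lower (medians -0.42 and -0.38). Ribosomal protein genes have many near-identical pseudogene copies, and how the counting shared reads among them is not given in the sources used here.

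Of 26 tested protein-coding hosts outside the ribosome, 17 were lower, 4 were higher and 5 did not pass (median log2 fold change -0.47). The balance depended on the scaling, with 12 lower and 9 higher under quantile scaling (median -0.068), 12 lower and 6 higher with TPM (median -0.18), and 22 lower and 3 higher with offsets for GC content and exonic length (median -0.67). RCC1, a chromatin-bound exchange factor for Ran that shares its locus with SNHG3, had 72.5 ± 2.01 CPM in sh-circPRKAA1 and 264 ± 5.90 CPM in sh-ctrl (-1.87). The translation elongation factor gene EEF1B2 was lower at -0.96. The 4 that were higher, named after their values were seen, were EIF4A1 (1.09), EIF4A2 (0.74), HSPA8 (0.60) and CHD8 (0.33). EIF4A1 had 13.2 CPM in sh-circPRKAA1 and 6.22 CPM in sh-ctrl, and EIF4A2 had 417 and 249 CPM. Why the row of EIF4A1 was this low was not tested. By annotation, 107 tested protein-coding genes outside the ribosome have a snoRNA inside, and 50 were lower, 24 were higher and 33 did not pass (median -0.18). With TPM 33 were lower and 34 higher and the median turned to 0.12, and it turned to 0.024 with library totals and to 0.022 and 0.023 with limma on FPKM.

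**Figure D5:**
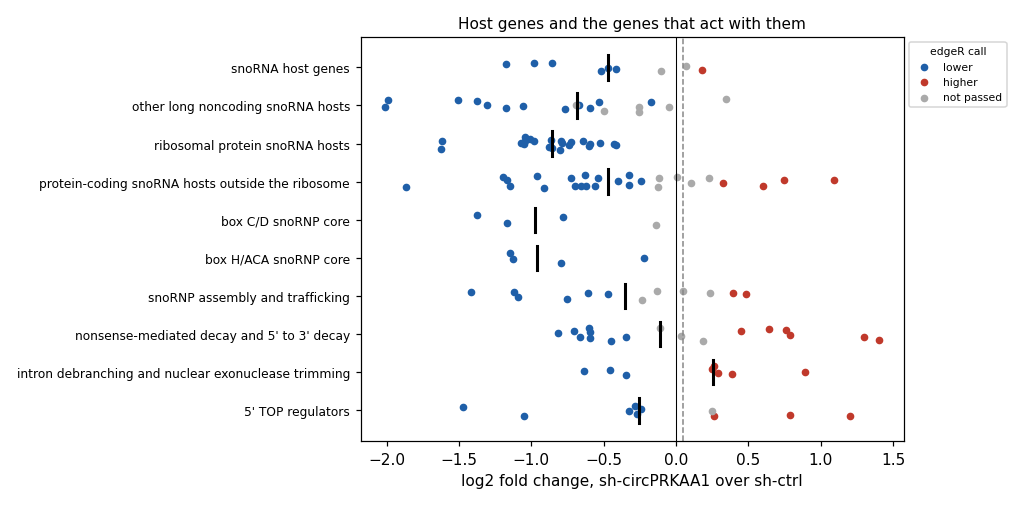
Log2 fold change (sh-circPRKAA1 over sh-ctrl) of each tested gene in 10 groups. They run from the host genes described here down to regulators of TOP RNAs or their relatives. Blue and red points passed the edgeR test as lower and higher and grey points did not. Thick bars are group medians and the dashed line is the median of all tested genes; every ribosomal protein host lies left of 0.

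Genes whose proteins bind snoRNAs were mostly lower. Of the 4 tested core proteins of box C/D particles, 3 were lower. FBL, the methyltransferase, had 128 ± 5.82 CPM in sh-circPRKAA1 and 331 ± 12.7 CPM in sh-ctrl (log2 fold change -1.37). NOP56 (-1.17) and SNU13 (-0.78) were lower too, and NOP58 had -0.14 (edgeR adjusted p = 0.319), with a sign that turned under library totals, TPM and limma on FPKM. NOP58 was called lower without sh-ctrl replicate 1 (-0.28, adjusted p = 0.00115) and with offsets for GC content and exonic length (-0.44, adjusted p = 7.24e-06). All 4 core proteins of box H/ACA particles were lower. They are DKC1, the pseudouridine synthase (-1.15), NHP2 (-1.13), GAR1 (-0.79) and NOP10 (-0.22, adjusted p = 0.0287), of which NOP10 turned to 0.074 with TPM. The call for NOP10 was also lost with library totals, quantile scaling, limma on FPKM, a minimum mean of 1 FPKM and the offsets for GC content and exonic length, and without sh-circPRKAA1 replicate 1 (-0.23, adjusted p = 0.0632) or replicate 3 (-0.15, adjusted p = 0.154). NOP56 and DKC1 are themselves host genes and count in both lists.

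Of 12 factors for assembly and trafficking of these particles, 6 were lower, 2 were higher and 4 did not pass (median -0.35). The median was -0.059 with TPM, where 5 were lower and 4 higher, -0.15 with library totals (6 lower, 4 higher), -0.12 and -0.15 with limma on FPKM (5 lower, 4 higher) and -0.54 with the offsets (10 lower, 0 higher). NOLC1, a nucleolar chaperone of both classes, was lower at -1.42, and the helicases RUVBL1 and RUVBL2 at -1.09 and -1.12, as was PIH1D1 at -0.61. The 2 that were higher, named after their values were seen, were PHAX (0.40) and RPAP3 (0.48), and neither was called higher with the offsets or without sh-circPRKAA1 replicate 1.

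The genes that process or remove host RNAs moved in both directions, as did all tested genes (36.1% higher and 32.4% lower). Of 17 genes of nonsense-mediated and exonucleolytic decay, 6 were higher and 8 lower (median log2 fold change -0.11, which turned to values of 0.05 to 0.18 with library totals, TPM, quantile scaling and limma on FPKM). With TPM 9 were higher and 6 lower. DCP2, the decapping enzyme, was higher, at 119 ± 5.28 CPM in sh-circPRKAA1 and 44.8 ± 8.35 CPM in sh-ctrl (1.40, edgeR adjusted p = 1.39e-08). The exonuclease gene XRN1 was higher (1.30), while UPF1, the central helicase of nonsense-mediated decay, was lower (-0.70), and so was EIF4A3 of the exon junction complex (-0.82). Of 8 genes for intron debranching and trimming, 5 were higher and 3 lower (median 0.26). With offsets for GC content and exonic length 1 was higher and 4 lower, and the median turned to -0.23. The number higher was 3 with median of ratios, quantile scaling, DESeq2 and no filter, 3 without sh-ctrl replicate 3 or either of sh-circPRKAA1 replicates 1 and 2, and 2 without sh-circPRKAA1 replicate 3. The exosome nuclease gene DIS3 was higher (0.89), and EXOSC10 (-0.46), EXOSC3 (-0.64) and the deadenylase gene PARN (-0.34) were lower.

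Another list held 10 regulators of TOP RNAs or their relatives, such as LARP7. Of these, 6 were lower and 3 higher (median log2 fold change -0.26). The balance turned to 2 lower and 4 higher with library totals, TPM, quantile scaling and limma on FPKM, with medians of -0.059 to 0.035. LARP1, which binds TOP tracts, had 192 ± 12.1 CPM in sh-circPRKAA1 and 399 ± 11.9 CPM in sh-ctrl (log2 fold change -1.05, edgeR adjusted p = 3.61e-09). EIF4EBP1, a translation repressor controlled by mTOR, was lower (-1.47), and the mTOR-activated kinase gene RPS6KB1 (1.20) and LARP7 (0.79) were higher. MYC, a transcription factor that acts on many genes of ribosome production, had 93.2, 96.8 and 101.6 CPM in sh-circPRKAA1, against 218.2, 210.7 and 202.9 CPM in sh-ctrl (-1.12, edgeR adjusted p = 1.98e-09). Whether these genes have a part in the host gene values was not tested.

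Likeness over the 6 libraries was measured as the root mean square difference of log2(CPM + 1), each gene centred on its own mean. Among the host genes SNHG6 and SNHG12 were nearest to each other (0.0796), then SNHG8 and SNHG16 (0.0849) and GAS5 and SNHG1 (0.0892). SNHG5 was nearest to the mean profile of the tested host genes (0.0356) and SNHG7 farthest from it (0.348). Outside the host genes the profiles nearest to that mean were those of PSMB8, an immunoproteasome subunit gene (0.0202), PTTG1, the securin gene (0.0210), and ALDH7A1, an aldehyde dehydrogenase gene (0.0288). Their log2 fold changes were -0.47, -0.48 and -0.44.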

How the data were processed

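Per the file headers, the deposited table holds read counts for each Ensembl gene with its exonic length and the authors' FPKM (counts per exonic length and library total). The sources used here give no aligner, counter or strand setting, and mouse builds stand beside a human one in the submitters' processing notes. Of the gene identifiers, 96.3% were in GENCODE 29 and 99.9% of those overlapped its coordinates, so positions are GRCh38. The deposited FPKM matched recomputed values within 0.0051 for 100% of values in the 5 numbered columns. The FPKM column without a number (1 column) was left out, and recomputed FPKM was used throughout.

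Groups and replicate numbers came from sample titles. Genes passing filterByExpr (minimum count 10, minimum total 15) were scaled by TMM and tested with edgeR 4.0.16 (R 4.3.3), quasi-likelihood, on 3 against 3 libraries, with Benjamini-Hochberg adjustment over 14990 genes. P-values measure the spread between libraries, which may be technical. Libraries of 1 group differed beyond sampling noise (chi-square of 3.82 to 16.1 for each degree of freedom). Deviations of same-numbered libraries correlated at -0.15 to 0.04, which cannot show whether the numbers pair them.

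Named genes are the 10 host genes, up to 4 genes of smallest p per list, overlapping or adjacent genes, the 3 genes of nearest profile, and MYC. Some genes that this rule picks are not reported here. The host genes and lists were chosen with earlier results of these data known. Alternatives were other scalings and filters, DESeq2 1.42.0, limma 3.58.1, a replicate block, GC and length offsets (mgcv 1.9.3), and each library left out. The offsets combined with the block, and GENCODE lengths for FPKM, were added after seeing the data.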

Additional observations from a re-analysis of the deposited data

How the results depend on the processing

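The number of host genes called higher (1) was 2 with library totals, quantile scaling and limma on FPKM with either pseudocount (1 or 0.1), 3 with TPM, 0 with median of ratios, without a filter, with DESeq2, and with GC and length offsets, with or without the replicate block, and 0 to 1 when 1 library was left out. The number called lower (6) was 3 with TPM and 5 to 7 under the other alternatives. GAS5 turned to -0.26 with the offsets and to -0.27 when the block was added, and SNHG1 to -0.072 with either. ZFAS1 turned to 0.097 with library totals, 0.19 with TPM, 0.11 with quantile scaling, and 0.090 and 0.095 with limma on log2(FPKM + 1) and log2(FPKM + 0.1). Other named genes that turned were NOP58 (0.062 with library totals, 0.15 with TPM, 0.080 and 0.085 with limma), NOP10 (0.074 with TPM), TRNAU1AP (0.074, 0.17, 0.061 and 0.070) and AC015802.4 (0.042, 0.14, 0.017 and 0.035), the last 2 under library totals, TPM and limma with either pseudocount. The cause was not tested. The remaining 903 of 916 values of these other 46 genes kept their direction, 876 with the same call.

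Over all genes, 5405 were higher and 4852 lower. The split was 6821 and 3560 with library totals, 7441 and 2956 with TPM, 6734 and 3604 with limma on log2(FPKM + 1), and 4401 and 5979 with the offsets; totals moved the median of all genes by 0.20 and TPM by 0.29. With the replicate number as a block, 5217 genes were higher and 4627 lower, 0 host genes and 3 of the 8 debranching and trimming genes were higher, and SNHG1 had 0.18 (adjusted p = 0.0940). Same-numbered libraries correlated at -0.09, -0.15 and 0.04 in their deviations, and differently numbered ones at -0.07 to 0.16. Deviations from means of 3 libraries cannot show whether the numbers pair the libraries, and the labels do not say. SNHG15 and the hosted snoRNAs were too thinly counted to compare.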
